A study of Saccharomyces cerevisiae with 8 samples.

Results

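The stretch of yeast 25S ribosomal RNA (rRNA) between nucleotides 2101 and 2310 of RDN25-1 was examined. It was defined by position alone. Of its 210 nucleotides, 5 annotated 2'-O-methylation sites are described (Cm2197, Am2220, Am2280, Am2281 and Gm2288), out of 55 annotated sites in 18S and 25S together. The 204 nucleotides outside annotated sites served as background, and 1 further annotated site of the window is not described here. The data come from RiboMeth-seq of whole-cell RNA of Saccharomyces cerevisiae, in which RNA is partially broken by alkali and the ends of the resulting fragments are counted at each nucleotide. Alkali cleaves poorly next to a ribose that carries a 2'-O-methyl group, so fewer read ends are found there than at the neighbouring nucleotides.

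There were 4 groups with 2 libraries each (replicates A and B), given as biological duplicates. Delta_Dbp3 lacked the DEAD-box RNA helicase Dbp3. PRP43_Glu and PRP43_Gal were a strain in which the gene of the DEAH-box helicase Prp43 sat behind a galactose-driven promoter, labelled for glucose, where that promoter is repressed, and for galactose, where it is active. WT was the wild type. Carbon source and promoter state therefore changed together between PRP43_Glu and PRP43_Gal and cannot be told apart. The medium of the individual WT and Delta_Dbp3 cultures and the time in glucose were not given in the sources used here. DBP3 and PRP43 transcripts were not analysed here, so the labels were not checked against the targeted genes. The libraries held between 5557319 (PRP43_Glu A) and 14191112 (PRP43_Gal B) read ends on 18S and 25S. The window received 170355 to 512716 of them. The window's share of the 25S read ends was 3.88% and 3.92% in the Delta_Dbp3 libraries, 4.42% and 5.08% in PRP43_Glu, 4.71% and 5.33% in PRP43_Gal, and 5.06% and 4.86% in WT. Per the file headers, 2 barcodes were shared by Delta_Dbp3 and PRP43_Glu and were used in neither PRP43_Gal nor WT, so barcode and group cannot be told apart in any comparison of these groups with WT or PRP43_Gal.

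Ribose methylation of rRNA is installed by box C/D small nucleolar ribonucleoproteins. In each, a small nucleolar RNA (snoRNA) pairs with the pre-rRNA next to the target, and the methyltransferase fibrillarin (Nop1 in yeast) modifies the paired nucleotide. RNA helicases such as Dbp3 and Prp43 are known to act on pre-ribosomes, the particles in which these guides bind, and Prp43 is also known for taking spliceosomes apart. The window belongs to domain IV of the large subunit RNA, which faces the small subunit in the assembled ribosome. By general knowledge, which neither the labels nor the tables give, snR76 guides Cm2197, snR47 guides Am2220, snR13 guides the adjacent Am2280 and Am2281, and snR75 guides Gm2288. In the RefSeq annotation of assembly R64, SNR75 and SNR76 are neighbours in a run of 7 snoRNA genes on chromosome XIII, whereas SNR47 and SNR13 both lie on chromosome IV between protein-coding genes.

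The sequences around the sites show what each was scored against, since a score compares a nucleotide with its 6 neighbours on each side. They are given 5′ to 3′ as in the deposited tables, with the described sites in capitals and 10 nucleotides on each side.
Cm2197, RDN25-1 nucleotides 2187 to 2207: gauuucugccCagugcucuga
Am2220, RDN25-1 nucleotides 2210 to 2230: gucaaagugaAgaaauucaac
Am2280, Am2281 and Gm2288, RDN25-1 nucleotides 2270 to 2298: aagguagccaAAugccucGucaucuaauu
Of the 12 neighbours, G or C made up 7 at Cm2197, 3 at Am2220, 6 at Am2280, 7 at Am2281 and 6 at Gm2288. Cm2197 and Am2220 lie 23 nucleotides apart, and neither has another annotated site among its neighbours. Am2280 and Am2281 are adjacent, so each enters the other's score, and these scores are not independent.

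The score divides the observed read ends by those predicted from the neighbours and subtracts this quotient from 1. It lies between 0 (no depletion) and 1 (no read ends). All 5 sites stood high in WT. Am2220 scored 0.974 ± 0.00341, Am2280 0.976 ± 0.00054, Am2281 0.964 ± 0.026 and Gm2288 0.969 ± 0.00159 (SD, n = 2). Cm2197 was the lowest of the 5 in WT, at 0.868 ± 0.0732 (SD, n = 2), and 6 of the 55 annotated sites had a lower WT mean. The group medians over the 5 sites were 0.958 in Delta_Dbp3, 0.896 in PRP43_Glu, 0.945 in PRP43_Gal and 0.969 in WT. The medians over the other 49 sites were 0.903, 0.808, 0.942 and 0.962 in the same groups.

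**Figure D1:**
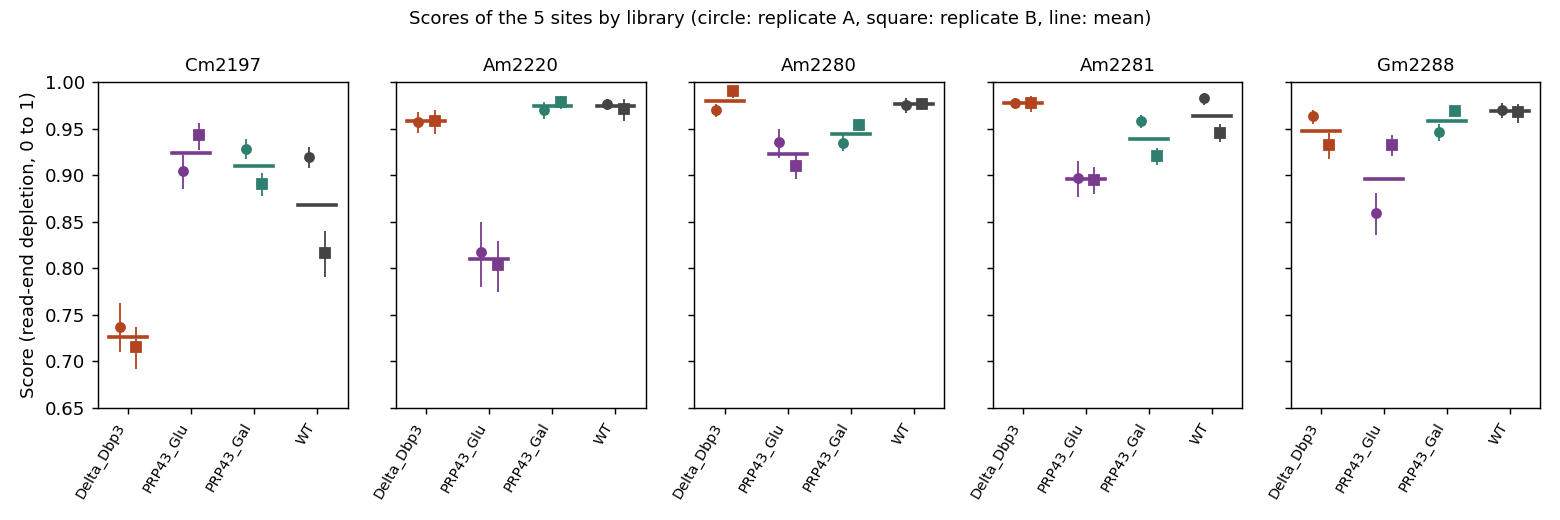
Scores (vertical axis, from 0.65 to 1) of the 5 sites in each library, by group. Circles are replicate A, squares replicate B, horizontal lines group means, and vertical bars 95% counting intervals of single libraries. The Delta_Dbp3 libraries stand apart at Cm2197 (0.737 and 0.715), and the PRP43_Glu libraries at Am2220 (0.817 and 0.803).

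Am2220 fell in PRP43_Glu, while every library of the other groups scored 0.958 or more. It scored 0.817 and 0.803 in PRP43_Glu, against 0.971 and 0.979 in PRP43_Gal, while Delta_Dbp3 scored 0.958 and 0.959 and WT 0.977 and 0.972. Both PRP43_Glu libraries lay below all 6 others, and each group's duplicates were close together. The read ends behind these scores were 111 and 208 at the site in PRP43_Glu, where the neighbours predicted 607 and 1058. In PRP43_Gal they were 47 and 38, where the neighbours predicted 1606 and 1830. The site therefore held fewer read ends in the more deeply sequenced PRP43_Gal libraries. The counting intervals were 0.780 to 0.850 and 0.775 to 0.829 in PRP43_Glu, against 0.961 to 0.979 and 0.972 to 0.985 in PRP43_Gal (exact Poisson, 95%, prediction held fixed). These intervals cover counting error only. They treat read ends as independent molecules, which read ends without molecular identifiers are not, so they can be too narrow.

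The mean score of Am2220 was 0.81 ± 0.00962 in PRP43_Glu and 0.975 ± 0.00601 in PRP43_Gal (SD, n = 2 each). The difference was -0.165 (SE 0.0109, 95% interval -0.192 to -0.137), with an adjusted p of 0.000155 in limma over all 55 sites. Against WT, PRP43_Glu differed by -0.164 (SE 0.0109, limma adjusted p = 0.000116). Both differences were many times larger than the spread between duplicates. A separate count test was run over 5167 nucleotides of 18S and 25S (edgeR's quasi-likelihood test on read ends, with the prediction as offset). It also called Am2220, with 7.58-fold more read ends relative to the prediction in PRP43_Glu than in PRP43_Gal (adjusted p = 0.0205) and 7.44-fold more than in WT (adjusted p = 0.00993). The edgeR call against PRP43_Gal was lost when any of the 4 compared libraries was left out: adjusted p was 0.222 without PRP43_Glu A, 0.272 without PRP43_Glu B, 0.148 without PRP43_Gal A and 0.365 without PRP43_Gal B, with 6.47- to 9.11-fold more read ends. The edgeR call against WT was lost likewise, with an adjusted p of 0.079 without PRP43_Glu A, 0.0865 without PRP43_Glu B, 0.0523 without WT A and 0.052 without WT B. In PRP43_Gal against WT the score difference was 0.000758 (95% interval -0.0268 to 0.0283, limma adjusted p = 0.988), and in Delta_Dbp3 against WT it was -0.0159 (95% interval -0.0435 to 0.0116, limma adjusted p = 0.351). The change between PRP43_Glu and PRP43_Gal minus the change between Delta_Dbp3 and WT was -0.149 (SE 0.0154, limma adjusted p = 0.00265), so the test of the difference itself passed at Am2220.

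Most read ends at Am2220 were 3' ends of fragments, 277 of 319 in PRP43_Glu (86.8%), 69 of 85 in PRP43_Gal (81.2%), 90 of 100 in Delta_Dbp3 (90%) and 82 of 88 in WT (93.2%). The loss was seen with either kind of end. From 3' ends alone the site scored 0.775 and 0.762 in PRP43_Glu, against 0.966 and 0.980 in PRP43_Gal. From 5' ends alone it scored 0.907 and 0.916 in PRP43_Glu, against 0.988 and 0.976 in PRP43_Gal. In the local profile, read ends at Am2220 relative to the median of the 21 surrounding nucleotides were 0.17 and 0.202 in PRP43_Glu, and 0.0303 and 0.0209 in PRP43_Gal. The nucleotide before the site stood at 0.549 and 0.851 in PRP43_Glu, and at 1 and 0.439 in PRP43_Gal, while the nucleotide after it stood at 0.67 and 0.937 in PRP43_Glu, and at 0.593 and 1 in PRP43_Gal. In PRP43_Gal B the nucleotide 2 before the site was also low, at 0.261.

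**Figure D2:**
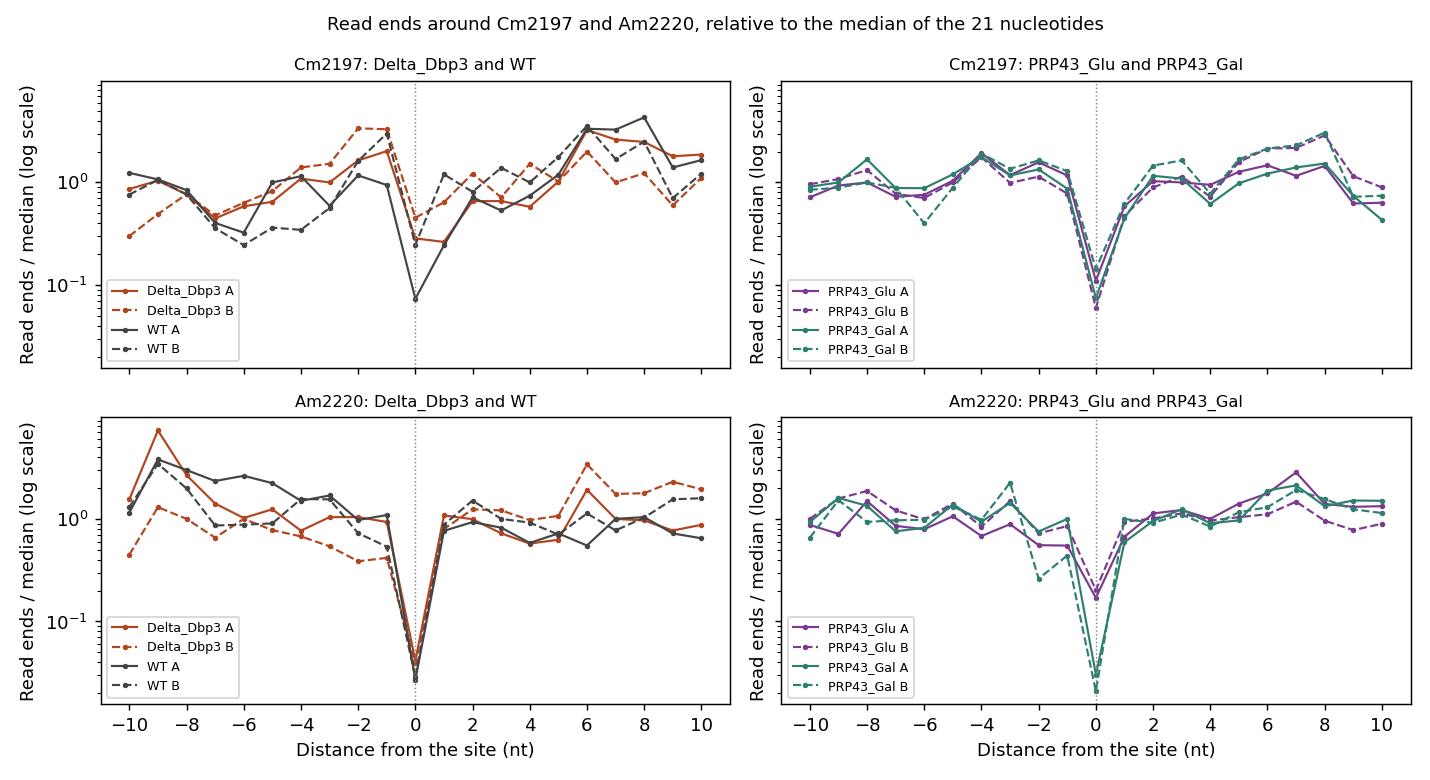
Read ends (vertical log axis, relative to the median of the 21 nucleotides) by distance in nucleotides from Cm2197 (top) and Am2220 (bottom), 1 line per library, solid for replicate A and dashed for replicate B. At Am2220 the trough is shallower in PRP43_Glu (0.17 and 0.202) than in PRP43_Gal (0.0303 and 0.0209); at Cm2197 it is shallowest in Delta_Dbp3 (0.285 and 0.453).

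The other site of the snR47 guide is Am619 in 18S. It scored 0.33 and 0.65 in PRP43_Glu, against 0.664 and 0.594 in PRP43_Gal, and the groups did not separate (0.49 ± 0.226 and 0.629 ± 0.0497, SD, n = 2 each). That difference of -0.139 had a limma adjusted p of 0.312. Delta_Dbp3 scored 0.843 and 0.889 and WT 0.914 and 0.922 at Am619. Against WT, PRP43_Glu was lower there by a score difference of -0.428 (SE 0.102, limma adjusted p = 0.0128), and PRP43_Gal against WT gave -0.289 with an adjusted p of 0.48. Of the 2 sites of this guide, 1 fell in PRP43_Glu against PRP43_Gal (56.4% of all 55 sites fell), 2 in PRP43_Glu against WT (69.1% of all sites) and none in Delta_Dbp3 against WT (27.3% of all sites). The median difference over all 55 sites in PRP43_Glu against PRP43_Gal was -0.135, beside -0.165 at Am2220, and 25 of 55 sites had a lower PRP43_Glu mean than Am2220.

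Cm2197 was lower in Delta_Dbp3. It scored 0.737 and 0.715 in Delta_Dbp3, 0.905 and 0.943 in PRP43_Glu, 0.929 and 0.891 in PRP43_Gal, and 0.920 and 0.816 in WT. Both Delta_Dbp3 libraries lay below the 6 others. WT B, however, lay closer to the Delta_Dbp3 libraries than any of the remaining libraries did, and the duplicates of WT were 0.103 apart, against a median gap of 0.0133 over the 55 sites in WT. The group means were 0.726 ± 0.0157 in Delta_Dbp3 and 0.868 ± 0.0732 in WT (SD, n = 2 each). The difference was -0.142 (SE 0.0377, 95% interval -0.237 to -0.0466) with a limma adjusted p of 0.0431, just inside the threshold of 0.05.

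This call depended on which libraries and settings were used. Leaving out any of the libraries except WT B ended it: adjusted p was 0.0882 without Delta_Dbp3 A, 0.153 without Delta_Dbp3 B and 0.119 without WT A, where the difference was -0.0902. It was 0.0751 without either PRP43_Glu library and 0.0729 without either PRP43_Gal library. Without WT B the difference was -0.194, with an adjusted p of 0.0202 in limma. The edgeR count scan gave 2.09-fold more read ends relative to the prediction in Delta_Dbp3 than in WT, with an adjusted p of 0.271.

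The deficit of protection at Cm2197 was carried by the 5' ends. Delta_Dbp3 had 371 and 593 5' ends at the site, but 13 and 35 3' ends, so 3' ends made up 4.74% of the total. In WT 3' ends made up 13.6% (56 of 412), whereas they made up 50.3% in PRP43_Glu and 53.1% in PRP43_Gal. From 5' ends alone Cm2197 scored 0.646 and 0.612 in Delta_Dbp3, against 0.881 and 0.80 in WT, a difference of -0.211 (limma adjusted p = 0.0178). From 3' ends alone it scored 0.969 and 0.948 in Delta_Dbp3, against 0.987 and 0.862 in WT, and the difference was 0.0342, in the opposite direction (limma adjusted p = 0.694). The 3'-end scores thus spread more between the WT libraries than between the groups. The share of 3' ends at this site was higher in PRP43_Glu and PRP43_Gal than in Delta_Dbp3 and WT. These groups differ in strain and in the additional reference RNAs of their tables, which cannot be told apart. The part of this share in the result was not tested.

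**Figure D3:**
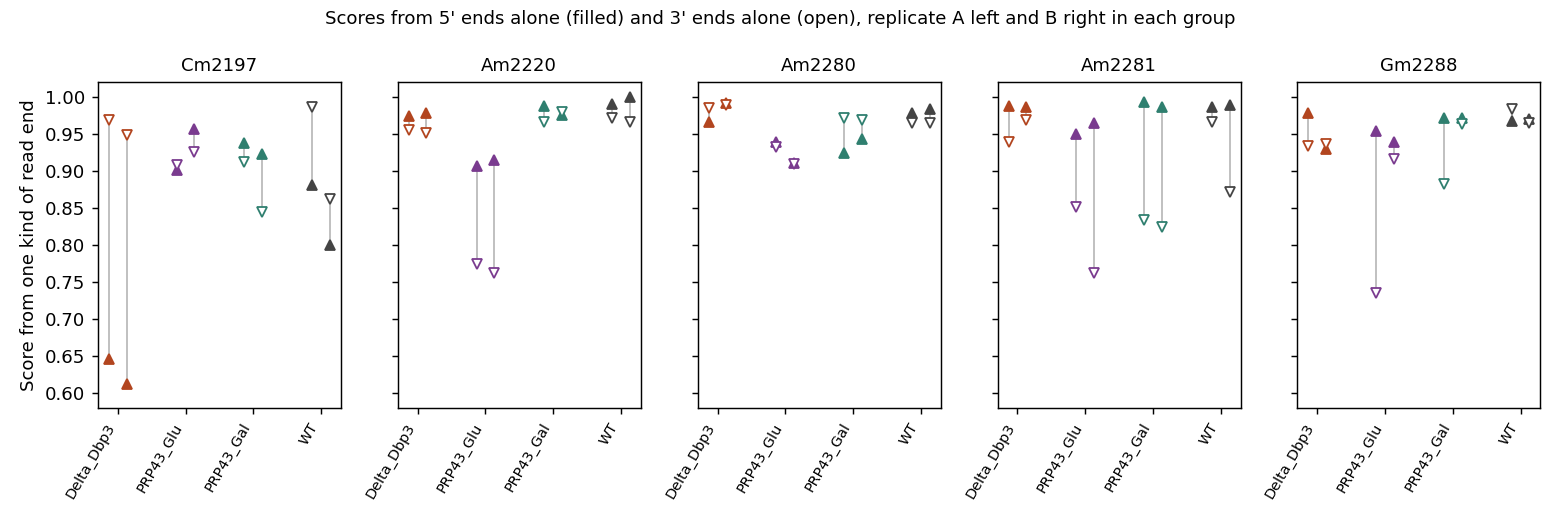
Scores from 5' ends alone (filled triangles) and from 3' ends alone (open triangles) at each site, by group, with replicate A left of B and a grey line joining the 2 scores of a library. At Cm2197 the Delta_Dbp3 libraries are low from 5' ends (0.646 and 0.612) and high from 3' ends (0.969 and 0.948), while at Am2220 both kinds of end are lower in PRP43_Glu than in PRP43_Gal.

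Between PRP43_Glu and PRP43_Gal, Cm2197 differed by 0.0143 (95% interval -0.081 to 0.11, limma adjusted p = 0.788). The lower bound of that interval stops short of -0.135, the median difference over all 55 sites. PRP43_Glu against WT gave 0.0557 (adjusted p = 0.235) and PRP43_Gal against WT 0.0414 (adjusted p = 0.794). Both rested on which WT library was used. Without WT A, Cm2197 was higher in PRP43_Glu than in WT by 0.107 (limma adjusted p = 0.0309), and without WT B the difference was 0.00401 (limma adjusted p = 0.94). For PRP43_Gal against WT the differences without a library ranged between -0.0103 and 0.0932, and none passed. The score difference against WT was negative in PRP43_Glu at 52 of the 55 sites, and Cm2197 was not among them. Within PRP43_Glu 41 of the 55 sites had a lower mean than Cm2197, while within Delta_Dbp3 9 of 55 did. The difference of the 2 changes was 0.156 (SE 0.0533), with a limma adjusted p of 0.0697, so the test of the difference itself did not pass at this site.

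snR76, the guide of Cm2197, and snR75, the guide of Gm2288, come from the same precursor with snR72, snR73, snR74, snR77 and snR78. The sites of these 7 guides are Cm2197, Gm2288, Am876, Cm2959, Am28, Um578 and Um2421. In Delta_Dbp3 against WT 3 of the 7 fell, Cm2197, Um2421 (0.302 and 0.632 in Delta_Dbp3, 0.940 and 0.984 in WT) and Cm2959 (0.746 and 0.809 in Delta_Dbp3, 0.965 and 0.887 in WT), where 27.3% of all 55 sites fell. The median difference of the 7 was -0.142, which is the value of Cm2197 itself, against -0.0327 over all 55 sites. In PRP43_Glu against PRP43_Gal 2 of the 7 fell, Am28 (0.895 and 0.875 in PRP43_Glu, 0.983 and 0.980 in PRP43_Gal) and Cm2959 (0.767 and 0.762 in PRP43_Glu, 0.958 and 0.975 in PRP43_Gal), where 56.4% of all sites fell, with a median of -0.0963 against -0.135 over all sites. Against WT, 2 of the 7 fell in PRP43_Glu (69.1% of all sites) and 0 in PRP43_Gal (0% of all sites). The 7 sites did not all change: the differences of Um578 lay between -0.0224 and 0.00617 in the 4 comparisons, and none passed in limma. Am876 differed more but did not pass. It gave -0.475 in Delta_Dbp3 against WT (0.708 and 0.214 in Delta_Dbp3, limma adjusted p = 0.0791). In PRP43_Glu against PRP43_Gal it gave -0.352 (limma adjusted p = 0.112). The call at Cm2197 depended on libraries and settings, as given above.

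Gm2288 did not pass in any comparison of the limma fit over all 8 libraries, but its value in PRP43_Glu turned on a single library. It scored 0.963 and 0.933 in Delta_Dbp3, 0.860 and 0.933 in PRP43_Glu, 0.947 and 0.969 in PRP43_Gal, and 0.970 and 0.968 in WT. The low value of PRP43_Glu A set it apart from the 7 other libraries, and it came mainly from 3' ends (score 0.736 from 3' ends and 0.954 from 5' ends). The difference was -0.0618 in PRP43_Glu against PRP43_Gal (95% interval -0.13 to 0.0062, limma adjusted p = 0.112) and -0.0731 against WT (95% interval -0.141 to -0.00502, limma adjusted p = 0.0545). Without PRP43_Glu B the difference against WT was -0.109 and passed (limma adjusted p = 0.0108), and without PRP43_Glu A it was -0.0367 (limma adjusted p = 0.166). The difference against WT also passed in 4 of 10 other settings. Against PRP43_Gal it passed without PRP43_Glu B (-0.0982) and with edgeR on the read ends of the 55 sites. In Delta_Dbp3 against WT it was -0.0211 (limma adjusted p = 0.657).

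The adjacent sites Am2280 and Am2281 fell in PRP43_Glu against WT and did not pass in the other comparisons. Am2280 scored 0.970 and 0.991 in Delta_Dbp3, 0.936 and 0.910 in PRP43_Glu, 0.935 and 0.954 in PRP43_Gal, and 0.976 and 0.977 in WT. The PRP43_Gal libraries also lay below both WT libraries at this site. PRP43_Glu differed from WT by -0.0535 (SE 0.0151, limma adjusted p = 0.022), and from PRP43_Gal by -0.0219 (95% interval -0.0599 to 0.0162, limma adjusted p = 0.294). The difference was -0.0316 between PRP43_Gal and WT (limma adjusted p = 0.492) and 0.00396 between Delta_Dbp3 and WT (limma adjusted p = 0.901).

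Am2281 scored 0.978 and 0.978 in Delta_Dbp3, 0.897 and 0.895 in PRP43_Glu, 0.958 and 0.921 in PRP43_Gal, and 0.983 and 0.946 in WT. PRP43_Glu lay below every other library, and the WT and PRP43_Gal libraries overlapped. PRP43_Glu differed from WT by -0.068 (SE 0.0187, limma adjusted p = 0.0205), and from PRP43_Gal by -0.0432 (95% interval -0.0904 to 0.00399, limma adjusted p = 0.112). Delta_Dbp3 and WT differed by 0.0138 (limma adjusted p = 0.661). Read ends at Am2281 were mostly 3' ends in PRP43_Glu (78.1%), PRP43_Gal (89.2%) and WT (76.9%), with a share of 61.9% in Delta_Dbp3. From 3' ends alone PRP43_Gal scored 0.834 and 0.824 at Am2281, inside the range of the PRP43_Glu values of 0.851 and 0.763. PRP43_Glu and WT differ in strain as well as in the state of PRP43. Their barcodes and the additional reference RNAs of their tables differ too, and the medium of WT was not given. These differences cannot be told apart. The snR13 sites passed in this comparison but not within the strain. Against WT, the Am2280 call was lost without PRP43_Glu B (adjusted p = 0.0893), WT A (0.0915) or WT B (0.0926) in limma. The Am2281 call was lost without PRP43_Glu A (limma adjusted p = 0.0646), PRP43_Glu B (0.076) or WT A (0.105).

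Counted over the 5 sites, 1 fell in Delta_Dbp3 against WT (Cm2197), where 27.3% of all 55 sites fell. In PRP43_Glu against PRP43_Gal 1 fell (Am2220), where 56.4% of all sites fell. In PRP43_Gal against WT 0 fell by limma at adjusted p 0.05, as over all sites (0%), with none of the 5 at an unadjusted p under 0.05 and none called under the 10 other settings or the 8 fits without a library. In PRP43_Glu against WT 3 fell (Am2220, Am2280 and Am2281), where 69.1% of all sites fell. In the difference of changes 1 was lower (Am2220), against 34.5% of all sites, and 0 were higher, against 7.27%. None of the 5 was called higher in any of these comparisons. Those with WT share the WT libraries. With 2 libraries against 2, an exact permutation test of a single site cannot go below 0.333, and all p-values here come from models that share their error estimate across sites or nucleotides.

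**Figure D4:**
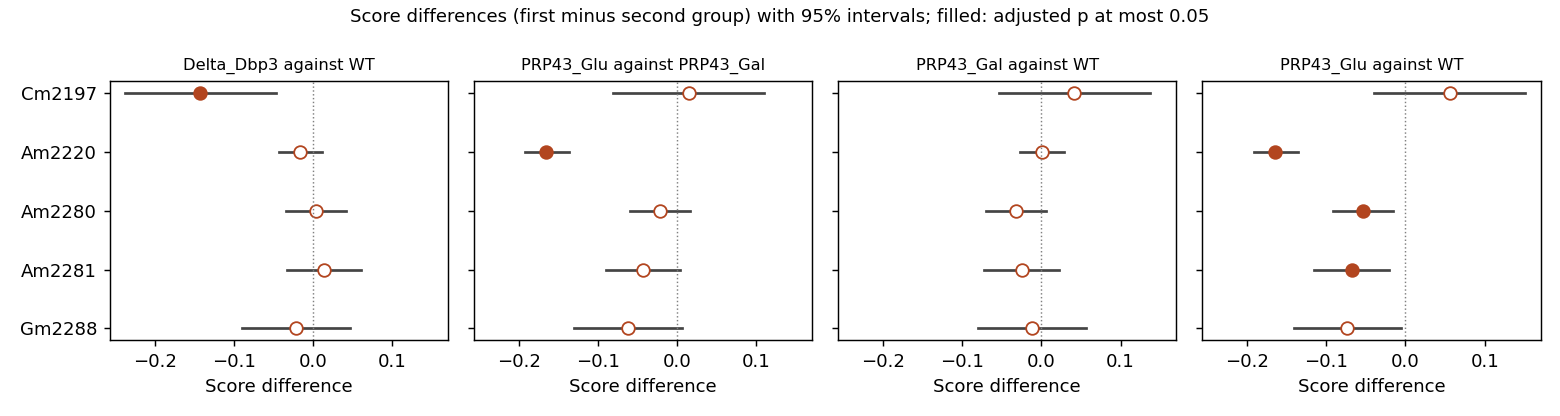
Score differences (horizontal axis, first minus second group) at the 5 sites in 4 comparisons, with 95% intervals from limma. Filled points have an adjusted p of at most 0.05: Cm2197 in Delta_Dbp3 against WT (-0.142), Am2220 in PRP43_Glu against PRP43_Gal (-0.165), and Am2220, Am2280 and Am2281 in PRP43_Glu against WT (-0.164, -0.0535 and -0.068).

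The separation of the libraries gave a similar picture. In Delta_Dbp3 against WT the duplicates did not overlap, with Delta_Dbp3 the lower group, at 3 of the 5 sites (Cm2197, Am2220 and Gm2288), where 69.1% of all sites did so. For PRP43_Glu against PRP43_Gal, with PRP43_Glu the lower group, this held at 3 sites (Am2220, Am2281 and Gm2288), where 70.9% of all sites did. For PRP43_Gal against WT it was 1 site (Am2280), against 43.6% of all sites. For PRP43_Glu against WT it was 4 sites, all but Cm2197, against 92.7% of all sites. At 0 of the 5 sites did both libraries of the first group lie above both of the second, and over all 55 sites this was also rare, at 5.45% in Delta_Dbp3 against WT, 1.82% in PRP43_Glu against PRP43_Gal, 7.27% in PRP43_Gal against WT and 0% in PRP43_Glu against WT. With only 5 sites, these counts are too few to set the window apart from the annotated sites at large.

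By likeness of scores over the 8 libraries (root mean square difference), Cm2197 was closest to Um2724 (0.0713) and Cm2959 (0.0974), and no site came as close to it as to the others. Am2220 was closest to Gm2793 (0.0193) and Um2729 (0.0212). Am2280 was closest to Am974 (0.0188) and Um2417 (0.0196), Am2281 to its neighbour Am2280 (0.0238) and to Um2417 (0.0263), and Gm2288 to Gm2815 (0.0282) and Am28 (0.0289). These distances describe the libraries and carry no test.

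The median score of the 204 background nucleotides stayed far below the sites in every library, between 0.0119 (PRP43_Gal A) and 0.121 (Delta_Dbp3 A). The highest background scores came closer. In WT B the highest was 0.779, against 0.816 at the lowest described site, while in PRP43_Gal A it was 0.718, against 0.929. Scores of 0.75 or more were reached by 3 and 1 of the 204 in Delta_Dbp3, 1 and 0 in PRP43_Glu, 0 and 1 in PRP43_Gal, and 5 and 4 in WT. In 5 of the 8 libraries no background nucleotide scored above the lowest described site. The exceptions were Delta_Dbp3 A and B, where 3 and 2 nucleotides exceeded the low Cm2197, and PRP43_Gal B, where G2302 (0.913) exceeded Cm2197 (0.891).

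**Figure D5:**
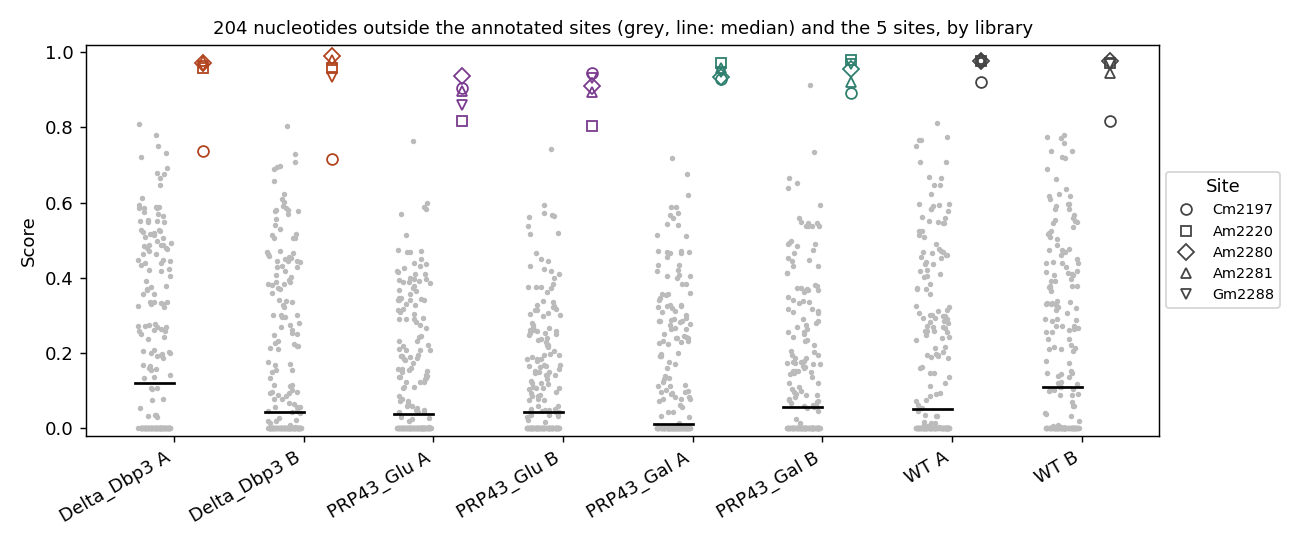
Scores of the 204 nucleotides outside annotated sites (grey points, black line at the median) and of the 5 described sites (open coloured symbols) in each library. The 2 kinds of nucleotide are separated in 5 of the 8 libraries; in both Delta_Dbp3 libraries Cm2197 (0.737 and 0.715) falls into the upper range of the background.

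The background nucleotides with the highest mean scores were U2264 (0.658), U2266 (0.646), C2265 (0.641), G2302 (0.598) and G2305 (0.592). U2264 and U2266 are positions at which pseudouridine, an isomer of uridine, is known in yeast. Whether pseudouridine goes with high scores in the window was not tested. U2264 ranged between 0.568 in PRP43_Glu B and 0.809 in Delta_Dbp3 A. G2302 had the widest range of the 5, between 0.101 in WT B and 0.913 in PRP43_Gal B, with 3278 read ends in WT B and 253 in PRP43_Gal B. A2198, which follows Cm2197 and is named after its values were seen, scored 0.780 and 0.586 in Delta_Dbp3, against 0.774 and 0.108 in WT. Its read ends enter the prediction for Cm2197. The WT libraries thus differed from each other beside Cm2197 as well as at it.

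A nucleotide was called in the scan when its adjusted p was at most 0.05 and its score differed by at least 0.1. None of the 204 background nucleotides was called in Delta_Dbp3 against WT, where 0.406% of all 5167 nucleotides were. In edgeR 30 had an unadjusted p under 0.05 (14.7%, against 17.2% of all nucleotides). DESeq2 called 7 of them and limma on log2 ratios 0. In PRP43_Glu against PRP43_Gal 0 background nucleotides were called, against 0.116% of all nucleotides (6, of which Am2220 was 1). Here 1 had an unadjusted p under 0.05 (0.49%, against 2.67% of all nucleotides). DESeq2 and limma also called 0. In PRP43_Gal against WT 0 were called by edgeR, against 1.74% of all nucleotides, with 10 called by DESeq2 and 1 by limma. In edgeR 33 had an unadjusted p under 0.05 (16.2%, against 20.7% of all nucleotides). In PRP43_Glu against WT 0 were called by edgeR, against 3.21% of all nucleotides, with 11 called by DESeq2 and 1 by limma. In edgeR 38 had an unadjusted p under 0.05 (18.6%, against 23.3% of all nucleotides). Shares over all nucleotides are given for the edgeR scan of all libraries only, so the DESeq2 and limma counts cannot be read against one. The edgeR counts of 0 depended on single libraries, again without a share over all nucleotides. Without Delta_Dbp3 A edgeR called 2 background nucleotides in Delta_Dbp3 against WT, 5 in PRP43_Gal against WT and 9 in PRP43_Glu against WT. Without Delta_Dbp3 B it called 4 in PRP43_Gal against WT and 11 in PRP43_Glu against WT, and without WT A it called 1 in each of these comparisons.

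The window also holds m1A2142, methylated on the base by Bmt2, and m5C2278, methylated on the base by Rcm1. At m1A2142 the score was 0.647 and 0.328 in Delta_Dbp3, 0.342 and 0.303 in PRP43_Glu, 0.268 and 0.349 in PRP43_Gal, and 0.371 and 0.321 in WT, with 87 read ends in Delta_Dbp3 A, the fewest of the 8 libraries. At m5C2278 the score was 0 in 7 libraries and 0.0134 in Delta_Dbp3 B.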

How the data were processed

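RiboMeth-seq was run on total RNA from 8 yeast cultures (4 groups of 2), sequenced on the Ion Proton platform per the labels' protocols. Bowtie2 2.3.4.1 and cutadapt 2.0 were used, per the submitters' processing notes. The genome build was not given in the sources used here. The authors deposited, per library and nucleotide, counts of 5' and 3' read ends and a RiboMeth score, a fraction between 0 and 1. The prediction in a score is the mean of the weighted averages of 6 neighbours on each side (weights 1 to 0.5), and scores are floored at 0. Recomputed scores differed from the deposited ones by at most 5e-10 over 41376 values. The WT and Delta_Dbp3 tables came with another set of additional reference RNAs than the PRP43 tables. The header of the authors' summary table speaks of barcode correction at some sites, and 6 of its site means matched the library scores only with 5' ends alone in a library. These were kept, and none is a described site.

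Scores of all 55 annotated sites (37 in 25S, 18 in 18S) were fitted with limma 3.58.1 (R 4.3.3) over 8 libraries, with Benjamini-Hochberg adjustment over the 55 sites per comparison and a threshold of 0.05. The scan used edgeR 4.0.16 on summed read ends, for 5167 nucleotides with a mean of at least 50 read ends. Alternatives were log2 odds of the score (scores held between 0.01 and 0.99), other models, neighbours and ends, DESeq2 1.42.0, and leaving out each library. The scripts were tested on simulated data. Figures were drawn with matplotlib 3.10.9. The members, lists and tests were chosen with earlier results of these data known. Named sites are the 5 described ones, the sites of the same or clustered guides, the 2 sites nearest in score to each, window nucleotides called in a scan (up to 5), and the 5 background nucleotides of highest mean score; others are said to be chosen after their values were seen. Sequences are those of the deposited tables.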

Additional observations from a re-analysis of the deposited data

Results flagged for a closer look

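At Am2220 the change between PRP43_Glu and PRP43_Gal differed from that between Delta_Dbp3 and WT by a test of the difference itself. This was not particular to Am2220: the test passed with a lower value at 34.5% of all 55 sites and with a higher value at 7.27%. It also passed at the 2 sites nearest to Am2220 in score, Gm2793 (-0.125, limma adjusted p = 0.00428) and Um2729 (-0.124, limma adjusted p = 0.011). At Am2220 the score difference was -0.165 between PRP43_Glu and PRP43_Gal and -0.0159 between Delta_Dbp3 and WT. The first minus the second was -0.149 (SE 0.0154, limma adjusted p = 0.00265 over 55 sites), and this call held in all 9 other settings. Leaving annotated neighbours out of the prediction, or using both ends in every library, left the scores of Am2220 itself unchanged. Without a library the value lay between -0.156 and -0.142.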

How the results depend on the processing

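Each result was recomputed under up to 10 other settings and without each of the 8 libraries. Of 445 such values, 393 kept their direction and side of the threshold, 21 lost the call, 12 gained it and 19 changed sign. The limma calls of the Am2220 score in PRP43_Glu against PRP43_Gal and against WT held in all 10 settings. Leaving annotated neighbours out of the prediction, or using both ends in every library, left the scores of Am2220 itself unchanged, so these settings could not move its differences. Without a library the differences lay between -0.172 and -0.158 against PRP43_Gal and between -0.171 and -0.157 against WT. Leaving out a library of a group not compared could not move the difference. The calls of Am2220 in the edgeR scan were lost in each comparison without any of the 4 compared libraries. Of the 5 sites, 0 passed in Delta_Dbp3 against WT with log2 odds, with the compared groups alone, with the replicate block, with edgeR, with 3' ends alone or with both ends in every library (0 to 1 without a library). In PRP43_Glu against PRP43_Gal 2 passed with edgeR (Am2220 and Gm2288) or 5' ends alone (Am2220 and Am2281), and 1 to 2 without a library. In PRP43_Glu against WT 1 passed with 3' ends alone, 4 with log2 odds, with trend and robust moderation or with edgeR, where Gm2288 was added (adjusted p 0.0132, 0.0256 and 0.0118), and 2 to 3 without a library, of which Cm2197 without WT A was higher. In the difference of changes 2 passed (Am2220 and Cm2197) with 2 neighbours on each side or 5' ends alone, and 1 to 2 without a library. In the scan, the count of window nucleotides in Delta_Dbp3 against WT was 7 with DESeq2 and 0 to 2 without a library. In PRP43_Glu against PRP43_Gal it was 0 with the replicate block or with a minimum of 500 read ends, which Am2220 does not reach, and 0 to 1 without a library. In PRP43_Gal against WT it was 1 with limma, 10 with DESeq2, 2 with 2 neighbours and 0 to 5 without a library. In PRP43_Glu against WT it was 2 with limma, 12 with DESeq2, 0 with the minimum of 500, 2 with 2 neighbours and 0 to 12 without a library. The cause of these shifts was not tested, and no share over all nucleotides is given for the other settings of the scan. The only called value that changed sign was Cm2197 in Delta_Dbp3 against WT, at 0.0342 from 3' ends alone. The other sign changes were of differences that had not passed. With 5' ends alone they were -0.00225 (Am2280) and -0.000479 (Am2281) in Delta_Dbp3 against WT, -0.00114 (Cm2197) in PRP43_Glu against PRP43_Gal, and -0.0136 (Am2220), 0.00211 (Am2281) and 0.00274 (Gm2288) in PRP43_Gal against WT. With 3' ends alone they were -0.0457 (Cm2197) and 0.00468 (Am2280) in PRP43_Gal against WT and -0.0071 (Cm2197) in PRP43_Glu against WT, and with 2 neighbours -0.00266 (Am2220) in PRP43_Gal against WT. Without a library the differences of such sites ranged between -0.00641 and 0.0143 (Am2280) and between -0.0046 and 0.0321 (Am2281) in Delta_Dbp3 against WT, between -0.00506 and 0.0337 (Cm2197) in PRP43_Glu against PRP43_Gal, and in PRP43_Gal against WT between -0.0103 and 0.0932 (Cm2197), -0.00349 and 0.00501 (Am2220), and -0.0224 and 2.2e-06 (Gm2288). With the replicate letter as a block, Cm2197 had an adjusted p of 0.0516 in Delta_Dbp3 against WT (limma), and no other site call changed. The correlation of A minus B differences over 55 sites lay between -0.276 and 0.327 for the pairs of groups, highest for PRP43_Glu with WT. Such a correlation cannot show whether libraries of the same letter were handled together, so pairing by letter was not settled. Counts of 24 to 628 read ends at Cm2197 and Am2220, and fewer than 20 at some 5' or 3' ends, limit the scores from a single kind of end. Counts were also low at Am2280 and Am2281, with 11 and 27 read ends in Delta_Dbp3 B and 42 and 33 in WT A, which limits their scores as well.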
